A study of Mus musculus with 9 samples.

Results

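In 3 mouse epiblast stem cell lines, libraries that carry the letter B in their names were compared with libraries that carry the letter C. Each line had 1 library of each letter, so the 6 libraries formed 3 pairs, out of 9 libraries in the series. Each library's side was set by its letter alone. In these lines letter B is replicate 1 and letter C is replicate 2, and the labels do not say what the letter stands for or whether the libraries came from separate cultures. The p-values therefore measure only the spread between these libraries, which may be technical.

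The series concerns Wnt signalling in epiblast cells, and RNA was measured in 4 lines with 2 or 3 libraries each. Cells grew on inactivated mouse embryonic fibroblasts, the feeder cells, in medium with 20 ng/mL Activin A plus 10 ng/mL FGF2, and this held for every group. The control line had no inhibitor. The IWP2 line was kept in 5 µM IWP2, a compound that blocks Porcupine and with it the secretion of Wnt proteins, and the IWP2_removed line had IWP2 withdrawn after its derivation. A line with a knockout of Dkk1, a secreted Wnt antagonist, has libraries A, B and C and was kept apart from the main comparison. SB431542 appears in the treatment protocol but in no sample's inhibitor label. Estimated reads in the 6 libraries ran from 10849490 to 17892751, of which the control letter B library held the fewest.

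Epiblast stem cells are cultured counterparts of the epiblast after implantation, and they depend on Activin and FGF signals. Like other pluripotent cells they rely heavily on glycolysis, whose enzymes are direct targets of hypoxia-inducible factor (HIF). When amino acids run short, the kinase GCN2 slows translation and lets the transcription factor ATF4 be made, which switches on amino acid synthesis and transport genes. Growth factors, serum and mechanical handling act within minutes on immediate early genes through ERK, serum response factor (SRF) and its partners.

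The labelled cell type was checked first. Pou5f1, the central pluripotency factor, stood at 456, 342 and 548 CPM (reads relative to the size of each library) in the letter B libraries of control, IWP2 and IWP2_removed and at 485, 1134 and 752 CPM in letter C. Nanog stood at 175, 130.0 and 210 CPM in letter B and 173, 301 and 249 CPM in letter C. Both genes were present in all 6 libraries, and their letter ranges overlapped. Values below keep this order of lines, and each log2 difference is letter B minus letter C.

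The letter separated the libraries on a scale close to that of the lines themselves. Of 16464 genes tested with edgeR's quasi-likelihood test, with line as the pairing term, 1389 (8.44%) passed at a Benjamini-Hochberg adjusted p below 0.05. Of these, 844 (5.13%) were higher in letter B and 545 (3.31%) lower, and 539 and 242 of them by at least 2-fold. Of all genes tested, 8915 (54.1%) had the same sign in each of the 3 lines. Past 1.5-fold in all 3 lines lay 888 genes higher in letter B (5.39%) and 453 lower (2.75%), of which 596 and 311 were called. The letter held 36.2% of the sum of squares of log2 CPM on 1 degree of freedom. The line held 43.5% on 2 degrees of freedom, and the remainder 20.3% on 2. In each of the 6 libraries the most correlated other library was one with the same letter from another line, not the other library of its own line, although the 2 values lay close together for control (0.971 and 0.968 for letter B, 0.969 and 0.968 for letter C). For IWP2 they were farther apart, at 0.971 against 0.947 for letter B and 0.976 against 0.947 for letter C. For IWP2_removed they were 0.971 against 0.97 for letter B, also close together, and 0.976 against 0.97 for letter C. By limma on TPM (a level that accounts for transcript length) the split was 405 higher and 84 lower, with the median of all genes shifted by 0.147. The count of genes called was 472 without the IWP2_removed pair, and 0 when all 9 libraries were fitted with 1 letter effect, where 3545 genes had an unadjusted p below 0.05.

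**Figure D1:**
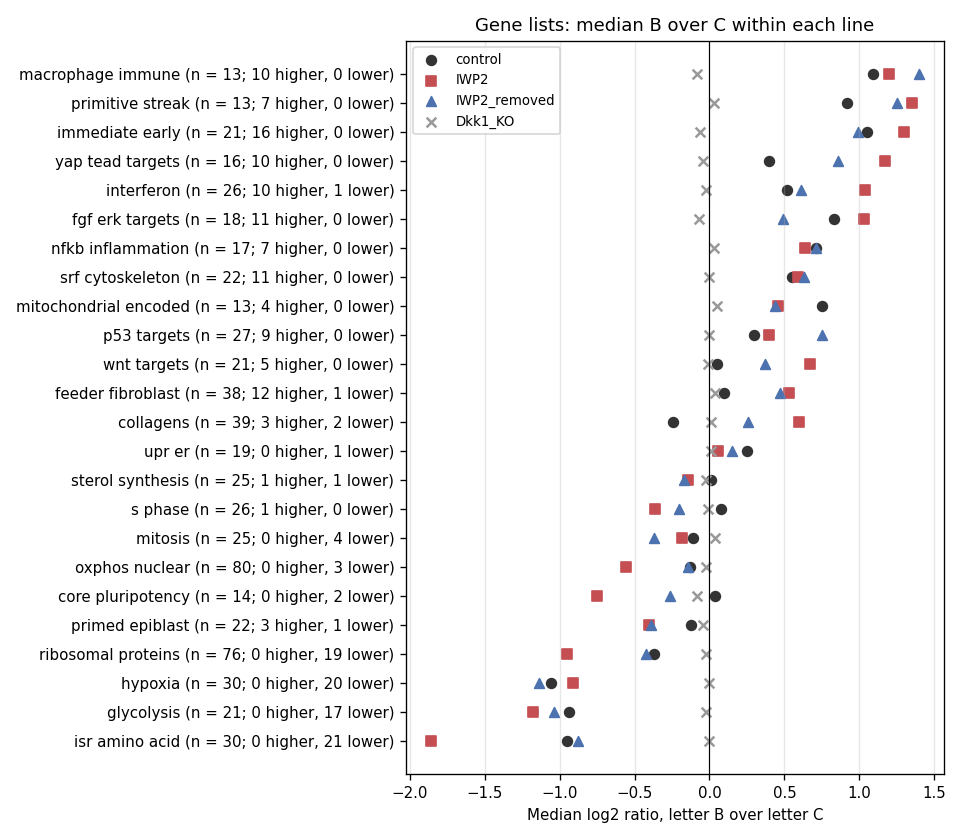
Median log2 ratio of letter B over letter C (horizontal axis) for 24 gene lists (vertical axis), one point for each line, with the Dkk1_KO line as crosses; the labels give the genes tested and those called higher or lower in letter B in the 3-line test. The 3 lines lie on one side of 0 for the lists at both ends, such as glycolysis (-0.94, -1.18 and -1.04), and the crosses lie near 0.

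The genes lower in letter B included much of the HIF programme and of glycolysis. Of 30 hypoxia genes tested, 20 were lower in letter B and none higher (median log2 difference -0.96, against -0.001 over all genes), and 29 had the lower sign in all 3 lines. Of 21 glycolysis genes, 17 were lower and none higher (median -1.08). Pdk1 and Slc2a1, both called, belong to the hypoxia list and to the glycolysis list. The summed level of the glycolysis genes was 6874, 5915 and 6665 CPM in letter B and 13510, 13970 and 14900 CPM in letter C, a ratio of B to C of 0.509, 0.423 and 0.447. Without the IWP2_removed pair 9 glycolysis and 15 hypoxia genes were called, and 9 and 9 by limma on TPM.

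The promoters of 2 of the called hypoxia genes are shown as examples of the binding core of HIF. They were chosen because they hold ACGTG, so their matches were fixed by the choice. Each run holds the 250 bases before the RefSeq start (GRCm38.p6), written 5′ to 3′ on the gene's strand, with each ACGTG on either strand in capitals. Bnip3 lies at chr7:138909507-138909756, minus strand, and Ddit4 at chr10:59951771-59952020, minus strand.
Bnip3: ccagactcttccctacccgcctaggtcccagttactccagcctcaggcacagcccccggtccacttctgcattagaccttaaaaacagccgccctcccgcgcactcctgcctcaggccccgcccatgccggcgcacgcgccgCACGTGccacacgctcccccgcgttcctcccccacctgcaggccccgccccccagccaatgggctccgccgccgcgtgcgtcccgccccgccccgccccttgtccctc
Ddit4: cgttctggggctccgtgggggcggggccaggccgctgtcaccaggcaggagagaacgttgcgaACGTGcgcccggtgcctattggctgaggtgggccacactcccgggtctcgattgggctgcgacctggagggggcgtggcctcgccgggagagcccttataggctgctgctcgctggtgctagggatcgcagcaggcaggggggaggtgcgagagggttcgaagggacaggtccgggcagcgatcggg
In Bnip3 the 2 matches overlap on opposite strands as CACGTG, and in Ddit4 there is 1 match. ACGTG was present in the window of 300 bases (250 before and 50 after the start) of 11 of 17 hypoxia genes (64.7%) and 7 of 10 glycolysis genes, against 1905 of 7449 promoters of tested genes (25.6%). With GCGTG counted as well as ACGTG, the share was 16 of 17 hypoxia genes (94.1%) and 10 of 10 glycolysis genes, against 4674 of 7449 (62.7%). Other lists described below also lay above 62.7%, with 16 of 19 genes of the ATF4 list (84.2%) and 11 of 14 immediate early genes (78.6%). For targets of FGF and ERK it was 6 of 7, and for the SRF list 7 of 10. For ACGTG alone the ATF4 list had 15.8% and the immediate early list 21.4%. Only windows within 100 bases of the start of the gene's most abundant transcript were counted. A match describes the sequence and does not show that a factor was bound.

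Bnip3, a mitophagy receptor of the outer mitochondrial membrane, stood at 12.9, 8.41 and 6.58 CPM in letter B and 89.2, 83.6 and 123 CPM in letter C, a log2 difference of -3.43 ± 0.27 SE, adjusted p = 0.00231. Ddit4, an inhibitor of mTORC1, stood at 54.4, 56.5 and 83.7 CPM and 255, 198 and 334 CPM (log2 difference -2.01 ± 0.14 SE, adjusted p = 0.00231). Every letter C library exceeded every letter B library for both genes. Ndufa4l2, a HIF target of the inner mitochondrial membrane, had the largest difference among the genes named here. It stood at 0.184, 0.343 and 1.18 CPM in letter B and 18.9, 17.8 and 27.9 CPM in letter C (log2 difference -5.28 ± 0.36 SE, adjusted p = 0.00231). Its letter B values in control and IWP2 rest on few reads, so the size of this difference is uncertain. Vegfa, the growth factor of blood vessels, stood at 45.3, 36.0 and 41.8 CPM and 142, 144 and 137 CPM (log2 difference -1.78 ± 0.13 SE, adjusted p = 0.00231). Its 3 letter C values lay within a narrow range, and none overlapped letter B. Egln3, an oxygen-sensing prolyl hydroxylase that marks HIF for destruction and is itself a HIF target, stood at 16.5, 14.4 and 10.7 CPM and 72.5, 36.5 and 67.8 CPM (log2 difference -2.05 ± 0.24 SE, adjusted p = 0.00651). Mgarp, a mitochondrial protein induced by hypoxia, stood at 1.19, 1.14 and 0.621 CPM and 12.2, 5.50 and 10.5 CPM (log2 difference -3.18 ± 0.38 SE, adjusted p = 0.00651).

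The 17 called glycolysis genes included those of glucose uptake and of lactate formation, while Hk1, Hk2, Aldoc and Pfkfb3 did not pass the test. Slc2a1, the glucose transporter GLUT1, stood at 110, 71.2 and 100 CPM in letter B and 265, 269 and 357 CPM in letter C (log2 difference -1.67 ± 0.16 SE, adjusted p = 0.00447). Pfkl, a subunit of phosphofructokinase, stood at 121, 111 and 98.9 CPM and 388, 362 and 398 CPM (log2 difference -1.80 ± 0.14 SE, adjusted p = 0.00231). Aldoa, the aldolase that splits fructose bisphosphate, stood at 405, 331 and 397 CPM and 1146, 1047 and 1225 CPM (log2 difference -1.60 ± 0.14 SE, adjusted p = 0.00363). For Slc2a1, Pfkl and Aldoa alike, each letter B library lay below every letter C library. Tpi1, triosephosphate isomerase, stood at 255, 230 and 233 CPM and 679, 654 and 666 CPM (log2 difference -1.48 ± 0.13 SE, adjusted p = 0.00375). Ldha, which makes lactate, stood at 478, 408 and 409 CPM and 1131, 1251 and 1337 CPM (log2 difference -1.52 ± 0.16 SE, adjusted p = 0.0054). Pdk1, a kinase that inhibits pyruvate dehydrogenase, stood at 16.6, 11.7 and 11.6 CPM and 64.6, 36.9 and 62.8 CPM (log2 difference -2.02 ± 0.18 SE, adjusted p = 0.00375). Pdk1 had its lowest letter C value in the IWP2 line.

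**Figure D2:**
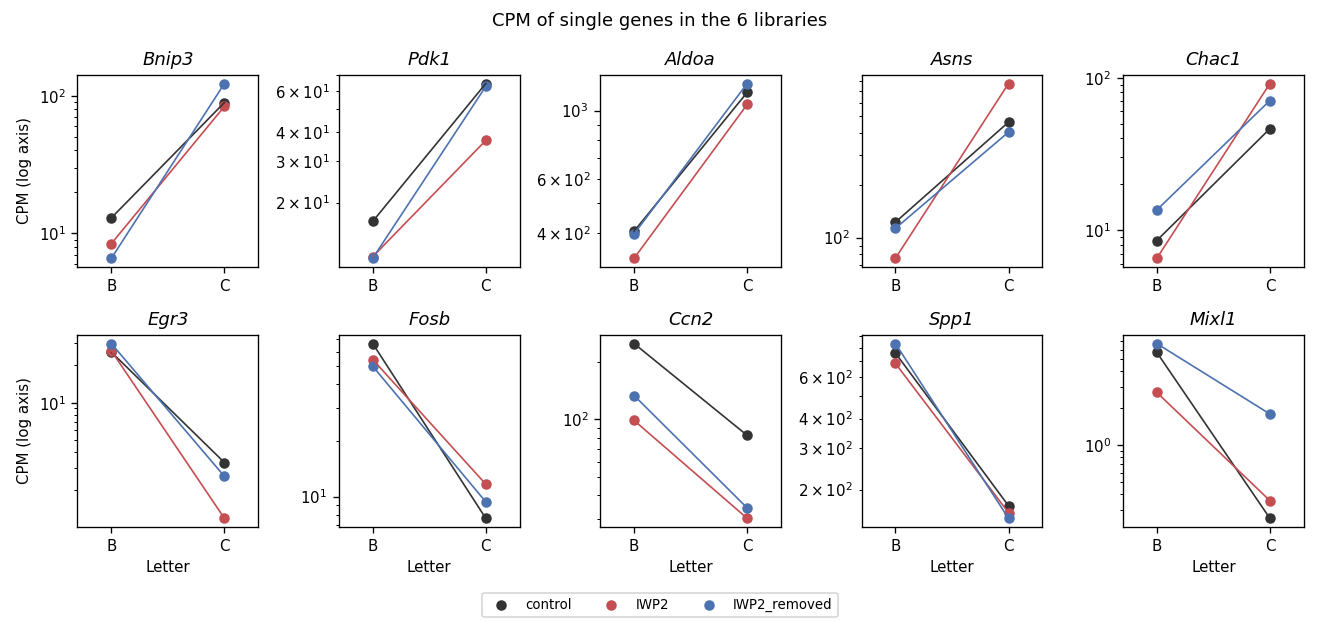
CPM on a log axis (vertical) in the letter B and letter C library (horizontal) of each of the 3 lines, joined by a line for each pair, for 10 genes. Bnip3, Pdk1, Aldoa, Asns and Chac1 are lower in letter B in every pair, and Egr3, Fosb, Ccn2, Spp1 and Mixl1 are higher in every pair.

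The ATF4 programme of amino acid supply was lower in letter B as well. Of 30 genes of this list 21 were lower and none higher, with a median of -1.18 and line medians of -0.95 in control, -1.86 in IWP2 and -0.88 in IWP2_removed, whose difference was not tested. Their summed level was 3100, 2546 and 3378 CPM in letter B and 5974, 9552 and 6711 CPM in letter C. Without the IWP2_removed pair 21 were called, and by limma on TPM 13. Ddit4, described above, and Stc2 belong to both the hypoxia list and this one, and both were called lower.

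The promoters of 2 called genes of this list were chosen because they hold the amino acid response motif TGATGNAA. That motif is the composite site that ATF4 binds with a C/EBP factor. The 250 bases before the start are given as above, with the motif in capitals. Pycr1 lies at chr11:120643749-120643998, minus strand, and Chac1 at chr2:119350992-119351241, plus strand, where the capitals show the motif on the opposite strand.
Pycr1: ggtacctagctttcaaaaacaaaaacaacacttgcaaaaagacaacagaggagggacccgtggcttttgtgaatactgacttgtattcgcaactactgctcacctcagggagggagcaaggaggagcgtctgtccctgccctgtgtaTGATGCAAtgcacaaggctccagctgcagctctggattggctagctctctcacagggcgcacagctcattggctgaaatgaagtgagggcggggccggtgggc
Chac1: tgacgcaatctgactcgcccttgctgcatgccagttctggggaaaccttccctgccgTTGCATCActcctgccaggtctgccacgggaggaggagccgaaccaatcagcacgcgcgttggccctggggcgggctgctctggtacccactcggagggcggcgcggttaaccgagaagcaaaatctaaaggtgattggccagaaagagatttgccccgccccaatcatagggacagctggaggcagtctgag
TGATGNAA, searched on both strands, was present in 7 of 19 promoter windows of the list (36.8%) and in 159 of 7449 of all (2.13%).

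Asns, asparagine synthetase, stood at 123, 76.0 and 113 CPM in letter B and 463, 772 and 406 CPM in letter C, a log2 difference of -2.36 ± 0.30 SE, adjusted p = 0.00784. Chac1, which degrades glutathione, stood at 8.53, 6.52 and 13.5 CPM and 46.3, 91.5 and 70.8 CPM (log2 difference -2.87 ± 0.29 SE, adjusted p = 0.00518). Trib3, a pseudokinase that damps ATF4 activity, stood at 7.43, 4.46 and 10.2 CPM and 50.4, 131 and 53.2 CPM (log2 difference -3.30 ± 0.45 SE, adjusted p = 0.00995). For these 3 genes the letter C library of IWP2 was the highest of the 6 and the letter B library of IWP2 the lowest. Pycr1, the last enzyme of proline synthesis, stood at 22.2, 15.2 and 23.8 CPM and 84.1, 95.0 and 80.1 CPM (log2 difference -2.10 ± 0.19 SE, adjusted p = 0.00394). Psat1, an enzyme of serine synthesis, stood at 337, 213 and 272 CPM and 700, 1033 and 681 CPM (log2 difference -1.55 ± 0.24 SE, adjusted p = 0.0141). Atf4 itself stood at 241, 185 and 259 CPM and 311, 674 and 464 CPM, which missed the threshold (log2 difference -1.02 ± 0.27 SE, adjusted p = 0.057). Of the neighbouring stress lists, the unfolded protein response had 1 gene lower and none higher of 19, Herpud1. That is 5.26%, against 3.31% of all genes tested that were lower. The heat shock list had no call among 18 genes (3 at an unadjusted p below 0.05, and 1 call by DESeq2), and neither did the NRF2 oxidative stress list among 20 (4 at an unadjusted p below 0.05, and 0 by DESeq2).

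Part of the ribosomal protein genes were also lower in letter B, with smaller differences. Of 76 ribosomal protein genes 19 were lower in letter B and none higher (median -0.59), and the line medians were -0.37, -0.95 and -0.42. Their summed level was 34400, 30810 and 36440 CPM in letter B and 45760, 59280 and 49020 CPM in letter C. Rps18, a protein of the small subunit, stood at 715, 572 and 670 CPM and 1150.0, 1193 and 1094 CPM (log2 difference -0.82 ± 0.15 SE, adjusted p = 0.0232). This count was unstable: it was 54 without the control pair, 25 without the IWP2 pair, 0 without the IWP2_removed pair and 0 by limma on TPM, and 59 by DESeq2. Ribosomal protein genes have many near-identical pseudogenes, so reads may be split between copies. Of 80 nuclear genes of oxidative phosphorylation 3 were lower and none higher (3.75%, near the 3.31% of all genes tested that were lower; median -0.28), namely Cox4i2, Ndufa6 and Ndufv3. Cox4i2, a subunit isoform of cytochrome c oxidase used at low oxygen, stood at 0.367, 0.515 and 0.248 CPM and 2.61, 1.83 and 4.30 CPM (log2 difference -2.84 ± 0.49 SE, adjusted p = 0.02). Of 13 genes encoded by the mitochondrial genome 4 (mt-Nd2, mt-Nd3, mt-Nd4l and mt-Atp8) were higher and none lower (median 0.58). The mitochondrial sum was 37060, 29410 and 34990 CPM in letter B and 22550, 25240 and 27370 CPM in letter C. mt-Nd4l, a subunit of complex I, stood at 379, 287 and 337 CPM and 208, 149 and 219 CPM (log2 difference 0.81 ± 0.13 SE, adjusted p = 0.0168), but it overlaps its neighbour on the mitochondrial genome, so its reads are uncertain. The mitochondrial count was 1 without the IWP2_removed pair and 9 by DESeq2.

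Transcript length and GC content moved with the letter, and their part in the results was not tested. Over 5 equal groups of genes, from shortest to longest transcript, the median log2 difference was -0.09, -0.16, -0.08, 0.05 and 0.24, and over 5 groups by GC content, from lowest to highest, 0.14, 0.06, -0.01, -0.08 and -0.13. The length pattern was steepest in IWP2, from -0.15 in the shortest group to 0.48 in the longest. The median length of the lists was 506 bases for ribosomal proteins, 542.5 for nuclear oxidative phosphorylation, 1775 for glycolysis, 2013.5 for the ATF4 list and 2290.5 for hypoxia. Of lists with genes higher in letter B, it was 784 bases for mitochondrially encoded genes, 1316 for macrophage genes and 1664 for the SRF list. It was 2349 bases for immediate early genes, 2606.5 for targets of FGF and ERK and 2752.5 for targets of YAP and TEAD. The IWP2 line also had the widest B to C difference across all genes, with an SD of the log2 ratio of 0.854, against 0.651 in control and 0.632 in IWP2_removed.

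**Figure D3:**
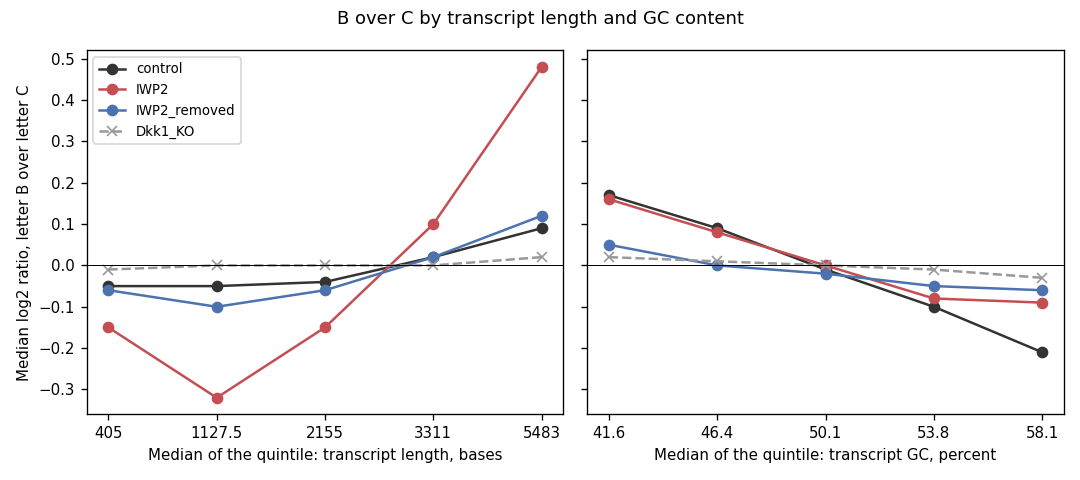
Median log2 ratio of letter B over letter C (vertical axis) for the genes in 5 equal groups by transcript length (left, in bases) and GC content (right, in percent), for the 3 lines and Dkk1_KO. Lengths run from a median of 405 to 5483 bases, and IWP2 runs from -0.15 in the shortest group to 0.48 in the longest, while Dkk1_KO lies between -0.01 and 0.02 over the groups by length.

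Among the lists with genes higher in letter B, the immediate early list had the most called members. Of 21 tested 16 were higher and none lower (median 0.99), and 13 were called without the IWP2_removed pair. Their summed level was 2782, 2306 and 2220 CPM in letter B and 1352, 969 and 1083 CPM in letter C, a ratio of 2.06, 2.38 and 2.05. Of the targets of FGF and ERK signalling 11 of 18 were higher and none lower (median 0.73). The same counts were 10 of 16 for targets of YAP and TEAD (median 0.82) and 11 of 22 for targets of SRF in the cytoskeleton (median 0.72). The immediate early list shares Egr1, Ier3 and Myc with the first of these and Ccn1 and Ccn2 with the second, and no gene with the SRF list. Without the IWP2_removed pair these 3 counts were 6, 5 and 1, and by limma on TPM 5, 4 and 7.

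The promoters of 2 called immediate early genes were chosen because they hold a CArG box within the 250 bases before the start. The CArG box is the binding sequence of SRF. The box is in capitals. Egr2 lies at chr10:67537619-67537868, plus strand, and Zfp36 at chr7:28379229-28379478, minus strand.
Egr2: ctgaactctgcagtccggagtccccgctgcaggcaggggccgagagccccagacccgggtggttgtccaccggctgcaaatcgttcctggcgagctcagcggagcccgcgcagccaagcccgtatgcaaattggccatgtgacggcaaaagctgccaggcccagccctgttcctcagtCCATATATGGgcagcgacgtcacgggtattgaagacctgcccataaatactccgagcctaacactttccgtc
Zfp36: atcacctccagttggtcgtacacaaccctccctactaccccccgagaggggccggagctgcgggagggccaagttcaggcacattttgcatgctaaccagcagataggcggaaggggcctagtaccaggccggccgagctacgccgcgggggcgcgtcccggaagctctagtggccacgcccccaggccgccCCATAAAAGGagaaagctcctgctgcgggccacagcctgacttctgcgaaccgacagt
A CArG box, which reads as a CArG box on either strand, was found in 2 of 14 windows of immediate early genes and 6 of 10 windows of the SRF list, against 94 of 7449 of all (1.26%).

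Fosb, a subunit of AP-1, stood at 66.2, 54.4 and 50.1 CPM in letter B and 7.65, 11.7 and 9.37 CPM in letter C, a log2 difference of 2.58 ± 0.20 SE, adjusted p = 0.00231. Egr3, a zinc finger factor induced by growth factors, stood at 25.5, 26.1 and 29.8 CPM and 3.31, 1.18 and 2.57 CPM (log2 difference 3.59 ± 0.30 SE, adjusted p = 0.00299). Nr4a1, an orphan nuclear receptor and also an immediate early gene, stood at 86.2, 59.4 and 83.0 CPM and 24.3, 15.4 and 27.4 CPM (log2 difference 1.79 ± 0.14 SE, adjusted p = 0.00231). No letter B library of any of the 3 genes lay within the letter C range. Egr1 stood at 521, 496 and 546 CPM and 232, 183 and 233 CPM (log2 difference 1.28 ± 0.13 SE, adjusted p = 0.0054). Egr2 ranged from 27.8 to 35.3 CPM in letter B and from 5.68 to 13.8 CPM in letter C (log2 difference 1.63 ± 0.22 SE, adjusted p = 0.00995), and Zfp36, which shortens the life of such messages, at 42.6, 39.3 and 42.2 CPM and 21.8, 15.9 and 27.2 CPM (log2 difference 0.96 ± 0.16 SE, adjusted p = 0.0188). Atf3, which belongs to this list and to the ATF4 list, did not follow the group, at 16.4, 9.84 and 15.8 CPM and 13.8, 18.9 and 21.7 CPM (log2 difference -0.39 ± 0.24 SE, adjusted p = 0.318).

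Ccn2, a secreted matricellular protein and the standard readout of YAP, stood at 249, 98.8 and 133 CPM and 82.5, 30.4 and 34.4 CPM (log2 difference 1.75 ± 0.13 SE, adjusted p = 0.00231). Ankrd1, a second such target, stood at 16.2, 5.72 and 11.6 CPM and 3.44, 0.592 and 0.899 CPM (log2 difference 2.97 ± 0.34 SE, adjusted p = 0.00649). Both were highest in control among the letter B libraries and also among the letter C libraries, and both were higher in letter B within every line. Tagln, an actin-binding protein of contractile cells, stood at 359, 204 and 289 CPM and 164, 93.4 and 92.4 CPM (log2 difference 1.30 ± 0.15 SE, adjusted p = 0.00649). Tpm1, tropomyosin, stood at 897, 626 and 637 CPM and 527, 261 and 283 CPM (log2 difference 1.07 ± 0.15 SE, adjusted p = 0.0115). Il17rd, a feedback inhibitor of FGF signalling, stood at 377, 381 and 382 CPM and 172, 131 and 205 CPM (log2 difference 1.19 ± 0.16 SE, adjusted p = 0.00928), and its letter C values were all below its letter B values. Dusp5, an ERK phosphatase, stood at 25.6, 21.8 and 27.3 CPM and 8.28, 10.0 and 9.50 CPM (log2 difference 1.42 ± 0.18 SE, adjusted p = 0.00719). Myc, a member of the FGF and of the Wnt target lists, stood at 24.4, 31.8 and 26.6 CPM and 9.56, 8.82 and 12.4 CPM (log2 difference 1.43 ± 0.19 SE, adjusted p = 0.00928).

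**Figure D4:**
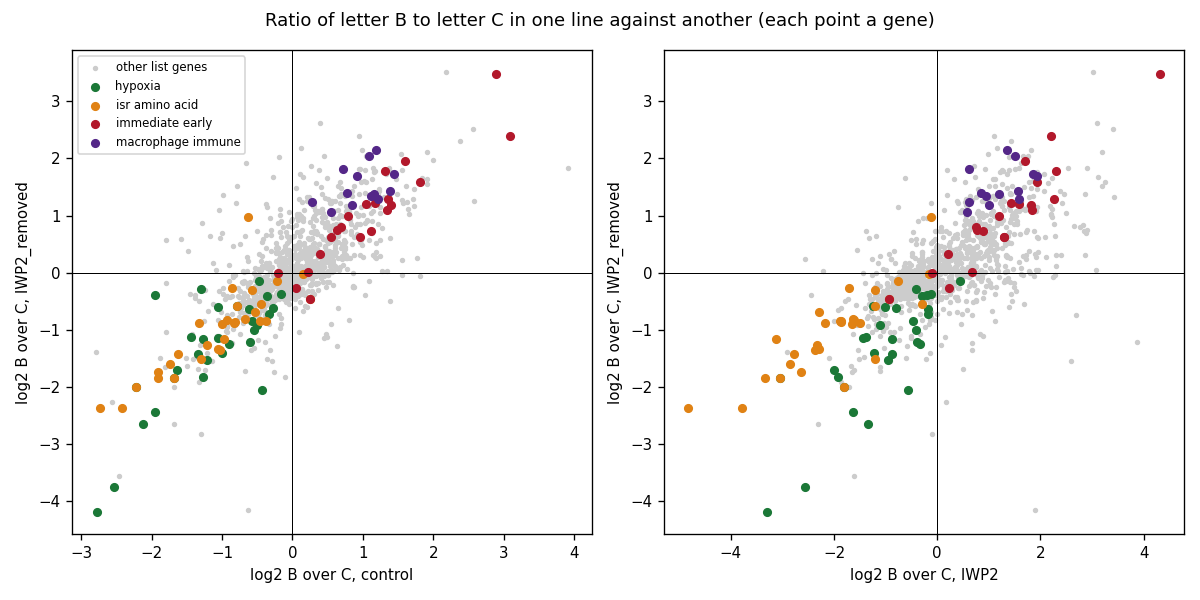
Log2 ratio of letter B over letter C in control (left) or IWP2 (right) on the horizontal axis against the same ratio in IWP2_removed on the vertical axis, one point for each gene of the gene lists, with 4 lists coloured. Immediate early and macrophage genes lie mainly at the upper right, and hypoxia and ATF4 genes at the lower left, in both panels.

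Most macrophage genes tested were higher in letter B. Of 14 macrophage and immune genes 13 passed the filter on low counts, of which 10 were higher and none lower (median 1.27), and all 13 were higher in each line. Their summed level was 378, 262 and 410 CPM in letter B and 179, 124 and 156 CPM in letter C. Without the IWP2_removed pair 4 were called. In bulk samples, fewer cells of a type and less RNA per cell cannot be told apart. Lyz2, lysozyme of myeloid cells, stood at 245, 149 and 249 CPM and 113, 77.2 and 97.4 CPM (log2 difference 1.14 ± 0.13 SE, adjusted p = 0.00649). Adgre1, the macrophage marker F4/80, stood at 21.6, 14.8 and 20.9 CPM and 8.16, 4.91 and 7.70 CPM (log2 difference 1.48 ± 0.18 SE, adjusted p = 0.00662). Csf1, the growth factor of macrophages, stood at 104, 96.9 and 130 CPM and 50.5, 36.4 and 49.5 CPM (log2 difference 1.28 ± 0.13 SE, adjusted p = 0.0054). These genes were present in all 6 libraries, and the letter ranges did not overlap.

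Several of the top-ranked genes higher in letter B are known from macrophages or inflammation. Spp1, osteopontin, stood at 759, 685 and 832 CPM and 171, 160 and 151 CPM (log2 difference 2.24 ± 0.15 SE, adjusted p = 0.00231). Gpnmb, a glycoprotein of lysosome-rich macrophages and other cells, stood at 75.8, 79.9 and 110 CPM and 15.4, 10.8 and 14.1 CPM (log2 difference 2.72 ± 0.17 SE, adjusted p = 0.00231). Mmp12, macrophage elastase, stood at 12.5, 13.7 and 15.5 CPM and 2.23, 2.19 and 3.72 CPM (log2 difference 2.38 ± 0.23 SE, adjusted p = 0.00447). For each of the 3, the 3 letter C libraries lay together and far below letter B. Msr1 and Stab1, both scavenger receptors, had log2 differences of 2.18 ± 0.21 SE, adjusted p = 0.00447 and 2.02 ± 0.18 SE, adjusted p = 0.00383. Ptgs2, the inducible cyclooxygenase, stood at 55.6, 37.8 and 53.9 CPM and 9.24, 3.43 and 9.37 CPM (log2 difference 2.83 ± 0.21 SE, adjusted p = 0.00231), and Ccl2, a chemokine that draws monocytes, at 51.5, 42.8 and 59.5 CPM and 9.75, 15.9 and 11.9 CPM (log2 difference 2.04 ± 0.21 SE, adjusted p = 0.0054). Both belong to the NF-kB list, where 7 of 17 genes were higher and none lower (median 0.72), also without the IWP2_removed pair (7 called). Of 26 interferon genes 10 were higher and 1, H2-K1, lower (median 0.75), or 5 higher without the IWP2_removed pair. Ifit1, an interferon-induced RNA-binding protein, stood at 19.4, 18.1 and 15.7 CPM and 5.35, 3.79 and 4.88 CPM (log2 difference 1.93 ± 0.21 SE, adjusted p = 0.00598). H2-Ab1, a class II antigen-presenting chain, went the other way, with 3.94, 1.26 and 2.67 CPM and 16.2, 6.33 and 9.31 CPM (log2 difference -2.04 ± 0.24 SE, adjusted p = 0.00651).

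Markers of feeder fibroblasts were present in all 6 libraries, and they differed less uniformly. Of 38 feeder genes 12 were higher and 1, Col6a2, lower in letter B (median 0.27), against 7 higher without the IWP2_removed pair. Their summed level was 11750, 10150 and 11760 CPM in letter B and 10530, 6503 and 8272 CPM in letter C. The feeder list shares Acta2 and Tagln, both called higher, with the SRF list. Fbln2, a matrix glycoprotein, stood at 635, 579 and 748 CPM and 253, 138 and 225 CPM (log2 difference 1.71 ± 0.17 SE, adjusted p = 0.00519), and S100a4, a calcium-binding protein of fibroblasts and macrophages, at 65.3, 61.2 and 81.2 CPM and 16.2, 19.1 and 20.6 CPM (log2 difference 1.89 ± 0.14 SE, adjusted p = 0.00231). Col1a1, the main fibroblast collagen, did not pass the test, at 916, 906 and 1180.0 CPM and 1328, 842 and 1119 CPM (log2 difference -0.12 ± 0.18 SE, adjusted p = 0.686). Of 39 collagens (median 0.26) 12.8% were called, against 8.44% of all genes tested. Among them 3 were higher (Col8a1, Col16a1 and Col27a1) and 2 lower (Col6a2 and Col6a6). That count was 12 higher and 1 lower without the control pair, 0 and 1 without the IWP2_removed pair, and 7 and 3 by DESeq2. Of 22 basement membrane genes 7 were higher and none lower (median 0.59), of which Lamb1, a laminin chain, stood at 342, 301 and 349 CPM and 230, 136 and 180 CPM (log2 difference 0.89 ± 0.15 SE, adjusted p = 0.0188). Without the IWP2_removed pair 1 basement membrane gene was called, and 12 without the control pair. Leaving the members of the feeder and macrophage lists out of the count left 1366 of the 1389 called genes. The part that feeder or macrophage RNA has in the other lists was not tested.

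The primitive streak is the region where epiblast cells enter mesoderm and endoderm. Of 13 of its genes tested 7 were higher in letter B and none lower (median 1.17, with 0.92, 1.35 and 1.25 in the 3 lines), and 4 without the IWP2_removed pair. Mixl1, a homeobox factor of the streak, stood at 5.69, 2.69 and 6.71 CPM and 0.255, 0.355 and 1.80 CPM (log2 difference 2.86 ± 0.48 SE, adjusted p = 0.0188). Eomes, a T-box factor of streak and endoderm, stood at 74.6, 52.1 and 111 CPM and 12.4, 28.5 and 46.6 CPM (log2 difference 1.54 ± 0.30 SE, adjusted p = 0.0271). Wnt3, the ligand that starts the streak, stood at 31.4, 19.8 and 41.2 CPM and 10.6, 12.4 and 17.0 CPM (log2 difference 1.17 ± 0.20 SE, adjusted p = 0.0185). The 3 genes were higher in letter B in the line kept in IWP2 as well as in the other two. Nkx1-2, a marker of the caudal epiblast, stood at 20.7, 13.4 and 35.4 CPM and 6.25, 4.50 and 14.3 CPM (log2 difference 1.53 ± 0.18 SE, adjusted p = 0.00649), higher in letter B within each line although the letter ranges overlapped. Of 21 Wnt targets 5 were higher and none lower (median 0.39, and 0.05 in control), namely Ccnd1, Myc, T, Tnfrsf19 and Wnt11. These are 23.8% of the list, against 5.13% of all genes tested that were higher. The count was 2 without the IWP2_removed pair and 8 without the control pair. Axin2, the common Wnt readout, stood at 39.6, 35.9 and 40.4 CPM and 35.8, 22.7 and 31.3 CPM and missed the threshold (log2 difference 0.39 ± 0.15 SE, adjusted p = 0.133).

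Of 14 core pluripotency genes tested, 2 (14.3%, against 3.31% of all genes) were lower in letter B and none higher. Without the control pair 5 were lower, and 6 were lower at an unadjusted p below 0.05. Their median was -0.36, with line medians of 0.04, -0.75 and -0.26, and the difference between lines was not tested. Otx2, a factor of the primed state, stood at 26.5, 41.0 and 36.1 CPM and 50.7, 104 and 69.3 CPM (log2 difference -1.07 ± 0.14 SE, adjusted p = 0.00889), and Sox2, a core factor, at 90.1, 99.9 and 75.2 CPM and 142, 163 and 121 CPM (log2 difference -0.68 ± 0.12 SE, adjusted p = 0.0185). Both were lower in letter B in all 3 lines without overlap. For Pou5f1 the log2 ratio was close to 0 in control and was lowest in IWP2, and the test was not passed (log2 difference -0.75 ± 0.30 SE, adjusted p = 0.144). Of 22 primed epiblast genes Fgf5, Epha1 and Cdh2 were higher (3) and Pim2 lower (1), with a median of -0.38. Together these are 18.2% of the list, against 8.44% of all genes tested. In all 3 lines 5 were higher and 9 lower, and at an unadjusted p below 0.05 there were 3 higher and 9 lower. DESeq2 called 3 higher and 5 lower. Fgf5, the ligand that marks the primed epiblast, was higher in letter B, at 84.6, 47.0 and 37.4 CPM and 25.6, 15.1 and 16.6 CPM (log2 difference 1.52 ± 0.16 SE, adjusted p = 0.0054). Pim2, a kinase of growth and survival, was lower, at 252, 256 and 174 CPM and 314, 743 and 444 CPM (log2 difference -1.08 ± 0.24 SE, adjusted p = 0.0378).

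Targets of p53 included 9 of 27 genes higher and none lower (median 0.41), or 4 without the IWP2_removed pair. The 9 are 33.3% of the list, against 5.13% of all genes tested that were higher. In all 3 lines 14 were higher and 4 lower, and at an unadjusted p below 0.05 there were 13 higher and 3 lower. DESeq2 called 12 higher and 1 lower. Mdm2, the ligase that limits p53, stood at 230, 159 and 263 CPM and 123, 92.7 and 127 CPM (log2 difference 0.91 ± 0.12 SE, adjusted p = 0.0101), and Perp, a desmosomal p53 target, at 91.0, 42.8 and 94.5 CPM and 35.0, 14.2 and 26.5 CPM (log2 difference 1.60 ± 0.14 SE, adjusted p = 0.00375). Of 25 mitosis genes Aurkb, Ube2c, Ccnb2 and Nusap1 (4) were lower and none higher (median -0.23). These are 16% of the list, against 3.31% of all genes tested that were lower. Aurkb, a kinase of chromosome segregation, stood at 84.0, 82.1 and 81.1 CPM and 116, 116 and 119 CPM (log2 difference -0.50 ± 0.11 SE, adjusted p = 0.0401). None of the mitosis genes was called without the IWP2_removed pair and 8 were without the IWP2 pair. The nuclear long noncoding RNAs Malat1 and Neat1, which stay in the nucleus, were higher in letter B, Malat1 at 264, 225 and 178 CPM and 127, 78.2 and 77.7 CPM (log2 difference 1.26 ± 0.14 SE, adjusted p = 0.00631) and Neat1 at 40.0, 24.3 and 41.0 CPM and 22.3, 11.4 and 16.2 CPM (log2 difference 1.09 ± 0.15 SE, adjusted p = 0.0112). Their ranges did not overlap. Of the 8 genes of this list Miat and Xist were also called higher (4 in all, 50%, against 5.13% of all genes). Without the IWP2_removed pair 2 of the 8 were called.

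In some lists the share of genes called lay near or below the 8.44% of all genes tested. Sterol synthesis had 1 gene higher, Hsd17b7, and 1 lower, Mvd, of 25, DNA methylation none of 14 (2 at an unadjusted p below 0.05, and 0 by DESeq2), and Notch none of 15 (5 at an unadjusted p below 0.05, and 1 by DESeq2). Hedgehog had none of 12 (5 at an unadjusted p below 0.05, and 2 by DESeq2) and definitive endoderm none of 13 (2 at an unadjusted p below 0.05, and 2 by DESeq2). Across chromosomes, the medians of the genes tested spanned 0.193 on the log2 scale, from -0.103 on chromosome 17 to 0.09 on chromosome 18.

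The Dkk1_KO line gave the same letters in libraries that the 3-line fit did not use, with letter B as replicate 2 and C as replicate 3. Of the 1389 called genes 758 (54.6%) had the same sign there, and 13 passed 2-fold in that direction. The median absolute log2 ratio of the called genes was 0.088 in that line, but 0.915 in control, 1.20 for the IWP2 pair and 1.03 for the IWP2_removed pair. For Bnip3 the ratio in Dkk1_KO was 0.09, for Asns -0.04, for Fosb 0.04 and for Spp1 0.11. Over all genes the SD of the log2 ratio was 0.371 in Dkk1_KO, against 0.651, 0.854 and 0.632 in the 3 lines. The Dkk1_KO libraries may be repeats of a single sample. The labels do not say whether a letter means the same there as in the 3 lines. The test of the difference between Dkk1_KO and the 3 lines, added after seeing the data, found no gene at an adjusted p below 0.05 (edgeR, smallest adjusted p = 0.141) and 1108 at an unadjusted p below 0.05. Of these 1108 genes 831 were among the 1389 called, which had been chosen for their difference in the 3 lines.

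The letter also bears on the comparison of the lines. Over the same 6 libraries, 362 genes differed between the 3 lines with the letter as a replicate block and 1 without it, with 3037 and 1356 genes at an unadjusted p below 0.05. This test of the lines was added after seeing the data.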

How the data were processed

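RNA from epiblast stem cell lines was sequenced with a TruSeq stranded mRNA kit, per the labels' protocols. The authors deposited estimated counts per transcript, which need not be whole, and TPM (levels scaled by transcript length), made with Salmon per the submitters' processing notes, which also name DESeq2 and edgeR. The sources used here do not name the transcriptome build. Transcripts were matched by identifier to GENCODE vM21 (GRCm38). In every library 219 of 133618 transcripts were unmatched. For each gene the deposited estimated counts of its transcripts were added up and rounded, and so were the deposited TPM, without rounding.

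The 6 libraries were compared in edgeR 4.0.16 (R 4.3.3) by the quasi-likelihood test with TMM scaling, filterByExpr, and line and letter as terms, with Benjamini-Hochberg adjusted p below 0.05 as a call. CPM are on the TMM scale, and log2 ratios within a line used a prior count of 2. The line pairs the libraries because each line holds 1 library of each letter. The exact sign test over 3 pairs cannot go below p = 0.25, so ratios within lines got no test. Depth sets counting error only. The pipeline was tested on simulated data for this comparison (16464 genes): 65% of 2-fold and 92% of 4-fold changes were recovered, and 26 of 183 calls were unchanged genes.

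The members and the 57 gene lists were chosen with earlier results of these data known. Named genes are, for each list, at most 4 called genes taken by adjusted p (the 2 most abundant where none was called), and the 12 genes higher and 12 lower in letter B that ranked highest by their smallest log2 ratio over the 3 lines, with a mean of at least 5 CPM, without predicted genes and pseudogenes. Genes outside this rule (Pou5f1, Nanog, Egln3, Slc2a1, Hk1, Hk2, Aldoc, Pfkfb3, Ier3, Ldha, Psat1, Stc2, Atf4, Atf3, Egr2, Zfp36, Acta2, Col1a1, Axin2, Col6a2, H2-K1, Peg3, Kdm5d and T) were named after their values were seen. Motif searches and the groups by length and GC content were added after seeing the data. Alternatives were other scalings, tools, filters, TPM, a test against 1.5-fold, no replicate block, all 9 libraries, and each line's pair left out. DESeq2 1.42.0 and limma 3.58.1 (pseudocount 1 on TPM) were used for these. Promoter sequences are from RefSeq.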

Additional observations from a re-analysis of the deposited data

Results flagged for a closer look

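In 3 gene lists the median log2 ratio of letter B over letter C pointed one way in one line and the opposite way in another, by at least 0.3 on each side. The difference between lines was not tested in any of them. For muscle and heart genes (12 tested, 1 called, Des, lower in letter B) the medians were 0.35 in control, -1.19 in IWP2 and 0.11 in IWP2_removed, a span of 1.54. For targets of Nodal and Activin (17 tested, 3 called higher, Gsc, Pmepa1 and Eomes) they were 0.50, -0.42 and 0.20, a span of 0.92. For Notch genes (15 tested, none called, 5 at an unadjusted p below 0.05, 1 by DESeq2) they were -0.32, 0.37 and 0.11, a span of 0.69.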

How the results depend on the processing

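The 1389 calls became 489 by limma on TPM (405 higher, 84 lower; 4 genes of opposite sign), 2979 with no filter on low counts, 181 against a fold of 1.5 and 0 over all 9 libraries (3545 at an unadjusted p below 0.05). With no replicate block, which drops the pairing by line, 324 were called, all among the 1389. Leaving out each line's pair in turn gave 472 to 2026 calls, the lowest without IWP2_removed, where 431 of the 1389 were kept. DESeq2 size factors (1474), upper-quartile factors (1319), the DESeq2 test (1784), a 1 CPM filter (1360) and protein-coding genes only (1260) stayed within 1.5 times. Genes past 1.5-fold in all 3 lines numbered 1341, and 768 on log2(TPM + 1). The letter's share of the sum of squares was 40.3% to 55.9% with each pair left out, the highest without control. Genes differing between lines numbered 362 with the letter as a replicate block and 1 with no replicate block. Of 159 named genes 141 were called, and none of the 141 changed sign under these alternatives, while 7 of the uncalled did. Without the IWP2_removed pair 77 of the 141 were called. Only 3 pairs, 1 library per letter and line, limit every value. Depth differed less than 2-fold and sets a floor only for low genes.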

Other observations

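Counts for Hox and imprinted genes are read against 5.13% of all genes tested that were higher in letter B and 3.31% lower. Of 29 Hox genes tested 3 were higher in letter B (Hoxa10, Hoxc6 and Hoxb5) and none lower. That count was 2 higher and 2 lower without the control pair, and none was called without the IWP2_removed pair. DESeq2 called 1 higher and none lower. Hoxa10 and Hoxb5 missed its threshold (DESeq2 adjusted p = 0.0807 and 0.136). Hoxa10, a posterior homeobox factor, stood at 5.23, 1.43 and 3.91 CPM in letter B and 2.04, 0.592 and 1.48 CPM in letter C (log2 difference 1.35 ± 0.30 SE, adjusted p = 0.0378, edgeR). Among 37 imprinted genes 3 were higher (Peg10, Nnat and Peg3) and 2 lower (Cdkn1c and Snrpn). That count was 6 higher and 2 lower without the control pair, and 6 and 3 without the IWP2 pair. Peg10, a retrotransposon-derived gene, stood at 413, 289 and 201 CPM and 199, 30.2 and 66.7 CPM (log2 difference 1.94 ± 0.38 SE, adjusted p = 0.0277, edgeR), with its lowest letter C value in IWP2.

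The RNA Xist, which coats an inactive X chromosome, was present in all 6 libraries together with the Y-linked genes. Xist stood at 24.6, 16.5 and 17.0 CPM in letter B and 10.3, 5.80 and 8.22 CPM in letter C (log2 difference 1.27 ± 0.18 SE, adjusted p = 0.012, edgeR). Kdm5d, on the Y chromosome, stood at 39.9, 44.9 and 43.2 CPM and 45.4, 41.4 and 39.2 CPM and did not pass the test (log2 difference 0.03 ± 0.14 SE, adjusted p = 0.915, edgeR).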
